A study of Mus musculus with 8 samples.

Results

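The genes of antigen presentation by the major histocompatibility complex (MHC) were examined in whole liver from Usp39-HKO mice and their control littermates. Members were every row of the deposited expression table whose symbol begins with H2-, the prefix of the mouse MHC, together with Cd74, B2m, Tap1, Tap2, Tapbp, Tapbpl, Ciita and Nlrc5. This rule took 51 rows, which carry 48 Ensembl identifiers of the 55385 in the table, because 3 identifiers are listed under a pair of symbols each (H2-T18/H2-T3, H2-T22/H2-T9 and H2-Q7/H2-Q9). By role, 34 of the 48 were put in class I, 12 in class II, and 2 in neither (the pseudogene H2-T-ps and H2-Ke6). H2-K2, H2-Bl, H2-Q5 and H2-T10 are also annotated as pseudogenes, polymorphic ones except for H2-K2, but were kept in class I. The polymorphic pseudogene H2-Ea-ps was kept in class II. The class II members were more abundant in Usp39-HKO liver, with 7 of the 9 that could be tested called higher and none lower. Of the 22 class I members tested, 1 was called, and it was higher. H2-T-ps, placed in neither class, was called higher too.

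The libraries came from 4 control livers (genotype WT in the labels, NC in their titles) and 4 Usp39-HKO livers, 1 library for each mouse. All mice were males of 5 weeks on a C57BL/6J background, fasted for 16 h before the liver was taken. Usp39-HKO animals carry Usp39 fl/fl, with loxP sites around exon 2, and a Cre driven by the albumin promoter, so that deletion is aimed at hepatocytes while Kupffer cells, endothelium, lymphocytes and other liver cells are not targeted. Controls were littermates, and the labels do not say which floxed or Cre alleles they carried. Total RNA was taken from the whole organ, and so fewer cells of a type and less RNA per cell cannot be told apart in any value given here. Counts assigned to genes ranged from 8589636 to 10418450 for each liver. Usp39 itself stood at 9.36, 10.4, 8.76 and 9.78 FPKM (counts scaled by exon length and by library size) in controls A468, A472, A473 and A475, and at 8.38, 8.63, 8.70 and 8.07 in Usp39-HKO livers A469, A470, A471 and A474. The groups did not overlap, and the log2 fold change was -0.41 (SE 0.11, adjusted p = 0.0212). Of 17 alternative fits 12 called Usp39 lower. The call was lost without control A475 (adjusted p = 0.0547), without Usp39-HKO A474 (adjusted p = 0.0615), without scaling by trimmed means (-0.18, adjusted p = 0.241) and by limma on log2(FPKM + 1) (-0.16, adjusted p = 0.190) or log2(FPKM + 0.1) (-0.18, adjusted p = 0.191). Counts over the whole gene include exons outside the deleted one and transcripts of cells without Cre, so they check the labels in part. The hepatocyte marker Alb averaged 7956 FPKM in controls and 8423 in Usp39-HKO, which matches the labelled tissue.

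MHC class I molecules display peptides made in the cytosol to CD8 T cells. A polymorphic heavy chain (H2-K1 or H2-D1 in this strain) pairs with beta-2 microglobulin, the product of B2m, and is loaded in the endoplasmic reticulum with peptides brought in by the Tap1 and Tap2 transporter, with tapasin (Tapbp) and its relative Tapbpl editing the cargo. Class II molecules display peptides from the endosome to CD4 T cells. Their alpha and beta chains (H2-Aa with H2-Ab1) travel with the invariant chain Cd74, and H2-DM exchanges the remnant of Cd74 for antigenic peptide while H2-O restrains H2-DM. Nearly all nucleated cells make class I, under the control of Nlrc5, whereas class II is a property of macrophages, dendritic cells and B cells and depends on Ciita. In the liver, Kupffer cells are the resident macrophages that carry class II.

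Promoter sequence was taken from RefSeq windows on GRCm38.p6, the assembly also called mm10. Of the 51 symbols, 35 had a window, and H2-Ab1, Cd74, Ciita, Nlrc5, Tap2, Tapbpl, H2-Q1, H2-Q5, H2-Q9, H2-K2, H2-Bl, H2-T9, H2-T10, H2-T18, H2-T24 and H2-Ea-ps had none. The 250 bases before the start site follow for a class II alpha chain and a class II beta chain, which moved together, and for a class I heavy chain and its light chain, which were not called. All 4 are written 5′ to 3′ on the strand of the gene. The H2-Aa window is chr17:34287824-34288073 on the minus strand, H2-Eb1 is chr17:34305617-34305866 on the plus strand, H2-K1 is chr17:34000348-34000597 on the minus strand and B2m is chr2:122147437-122147686 on the plus strand. Capitals mark the motifs described after them.
H2-Aa: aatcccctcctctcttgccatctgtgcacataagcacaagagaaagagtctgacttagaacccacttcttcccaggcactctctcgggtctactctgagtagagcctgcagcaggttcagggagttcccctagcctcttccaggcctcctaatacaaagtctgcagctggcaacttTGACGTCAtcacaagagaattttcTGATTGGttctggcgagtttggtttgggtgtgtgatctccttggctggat
H2-Eb1: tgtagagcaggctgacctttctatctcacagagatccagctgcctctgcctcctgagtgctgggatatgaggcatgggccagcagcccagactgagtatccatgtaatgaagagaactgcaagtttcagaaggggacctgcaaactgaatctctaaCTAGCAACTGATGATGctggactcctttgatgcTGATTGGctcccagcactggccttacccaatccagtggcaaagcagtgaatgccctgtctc
H2-K1: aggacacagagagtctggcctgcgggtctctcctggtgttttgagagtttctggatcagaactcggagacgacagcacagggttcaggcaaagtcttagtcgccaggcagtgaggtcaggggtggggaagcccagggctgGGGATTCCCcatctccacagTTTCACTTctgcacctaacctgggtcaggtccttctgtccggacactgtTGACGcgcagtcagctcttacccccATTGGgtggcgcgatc
B2m: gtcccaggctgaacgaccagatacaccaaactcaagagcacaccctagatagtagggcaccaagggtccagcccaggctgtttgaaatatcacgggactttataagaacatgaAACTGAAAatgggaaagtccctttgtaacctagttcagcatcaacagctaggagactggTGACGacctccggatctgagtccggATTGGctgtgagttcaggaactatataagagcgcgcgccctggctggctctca
Motifs were chosen after these sequences had been read, were searched for on both strands, and are matches of letters, not measured sites. In both class II windows the capitals close with TGATTGG, which holds the ATTGG core that the factor NF-Y is known to bind. It lies 50 to 44 bases before the start of H2-Aa and 61 to 55 bases before that of H2-Eb1. Upstream of it, H2-Eb1 carries CTAGNAAC followed directly by TGATGATG, and H2-Aa carries TGACG on both strands at overlapping places. H2-DMb1, which codes for the beta chain of H2-DM and whose window is not printed, has the same order as H2-Eb1, with TGATTGG at 63 to 57 bases. H2-K1 has GGGATTCCC, the form read by NF-kappa B factors, then TTTCNNTT, the spacing of an interferon response element, then TGACG and ATTGG. B2m has TTTCNNTT on the opposite strand, TGACG and ATTGG, with no GGGATTCCC in the window.

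These letters were common outside the MHC to very different degrees. Over 32851 windows of the same 250 bases, ATTGG was present in 33.9%, TTTCNNTT in 21.3%, TGACG in 17.8%, TGATTGG in 7.23%, CTAGNAAC in 3.06%, TGATGATG in 1.24% and GGGATTCCC in 0.301%. TGATTGG was found for 7 of the 8 class II symbols with a window and for 15 of the 25 class I symbols, so it did not separate the classes. TGATGATG was found for H2-DMb1 and H2-Eb1 and for no class I symbol, and CTAGNAAC for 4 class II symbols (H2-DMb1, H2-Eb1, H2-Eb2 and H2-Ob) and 1 class I symbol (H2-M2). GGGATTCCC was found for 4 class I symbols (H2-D1, H2-K1, H2-Q6 and H2-Q7) and for no class II symbol. The windows of H2-K1 and H2-D1 lined up without gaps over 190 bases, of which 166 (87.4%) were equal. H2-Ob, which has TGATTGG and CTAGNAAC, had a log2 fold change of 0.04.

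Levels of the members differed by over 3 orders of magnitude in the plot of FPKM by liver. In controls B2m led with a mean of 1122 FPKM ± 120 (SD, n = 4), ahead of H2-K1 with 502 ± 72.5, H2-D1 with 342 ± 59.0 and H2-Q10 with 321 ± 52.9. Cd74 was the most abundant class II member, with 82.6 ± 19.5. Its level was above that of every class II chain, the highest of which was H2-Eb1 with 19.2 ± 7.75. The transactivators were rarer, with Nlrc5 at 6.09 ± 0.0865 and Ciita at 0.435 ± 0.0610.

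**Figure D1:**
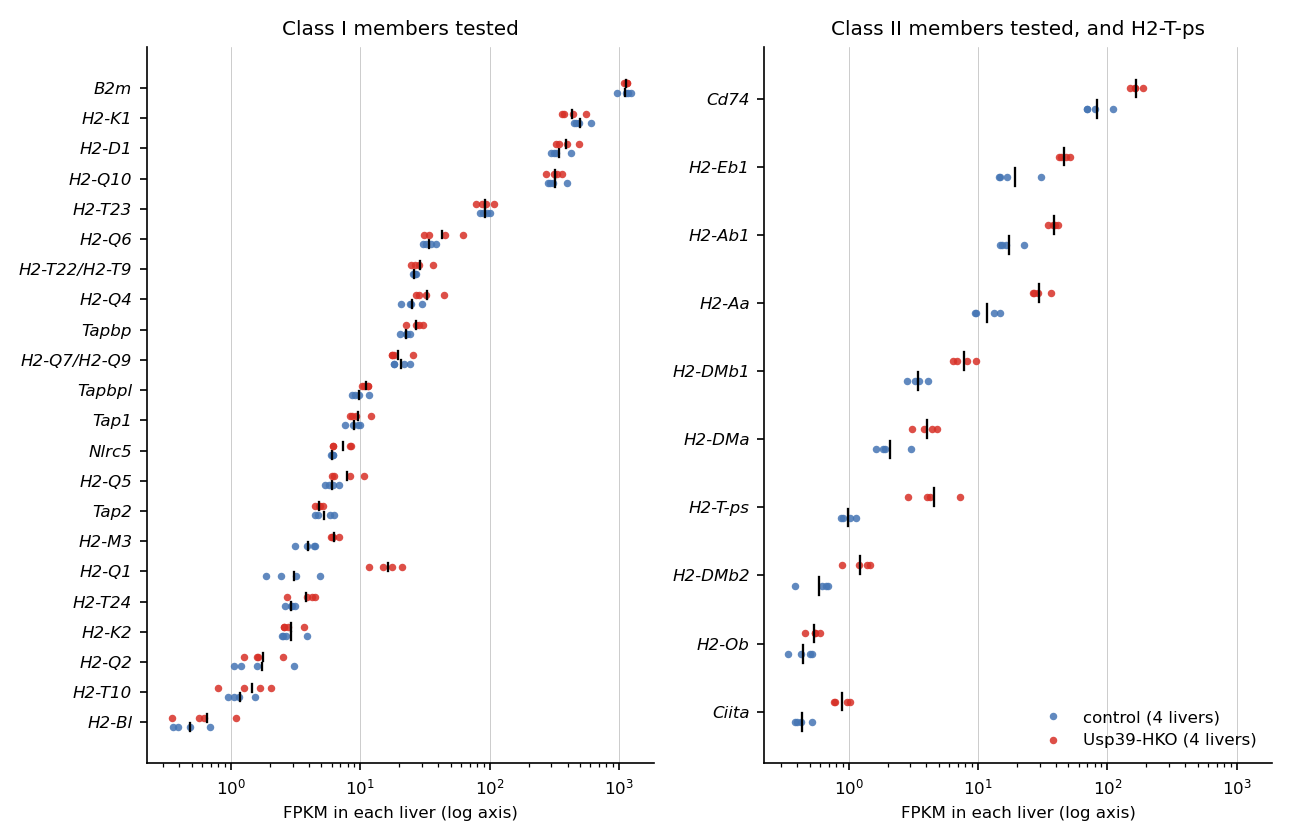
FPKM of the 32 MHC members tested, on a log axis, with 1 point for each of 4 control and 4 Usp39-HKO livers and a black bar at each group mean. Class II chains, Cd74, H2-DM genes, Ciita, H2-Q1, H2-M3 and H2-T-ps have Usp39-HKO livers to the right of all controls, while the abundant class I genes overlap, as for B2m with 957.5 to 1242 in the controls against 1098 to 1161 in Usp39-HKO.

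Differences were tested in 14340 genes with at least 0.5 FPKM in at least 4 livers, using the quasi-likelihood test of edgeR on the deposited counts, and a gene was called at an adjusted p under 0.05. Of all genes tested, 3225 (22.5%) were called, 1561 (10.9%) as higher and 1664 (11.6%) as lower in Usp39-HKO. Among members, 32 were tested, 9 were called higher and none lower, and 2 (H2-K1 and Tap2) were lower at an unadjusted p under 0.05. The 7 of 9 called higher in class II stand against the 10.9% over all genes, and their median log2 fold change was 0.82 against -0.0015 over all genes tested. For class I, 1 of 22 called in either direction stands against 22.5%, and the median log2 fold change was -0.052. The whole-table count was 1931 without control A473, 2043 without control A475 and 2094 without Usp39-HKO A474. With no filter 7 of 11 class II members were called higher, and with a mean count of at least 10 again 7 of 9. Class II calls numbered 6 to 8 with any 1 liver left out, and class I calls 1 to 3, the 3 arising without Usp39-HKO A469. Without a trimmed-mean (TMM) scaling factor between livers, 4211 genes were called, of which 3509 were higher, since the median gene was then shifted upwards. On log2(FPKM + 1) that shift was 0.172, and it bears on every comparison of FPKM between groups given here.

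**Figure D2:**
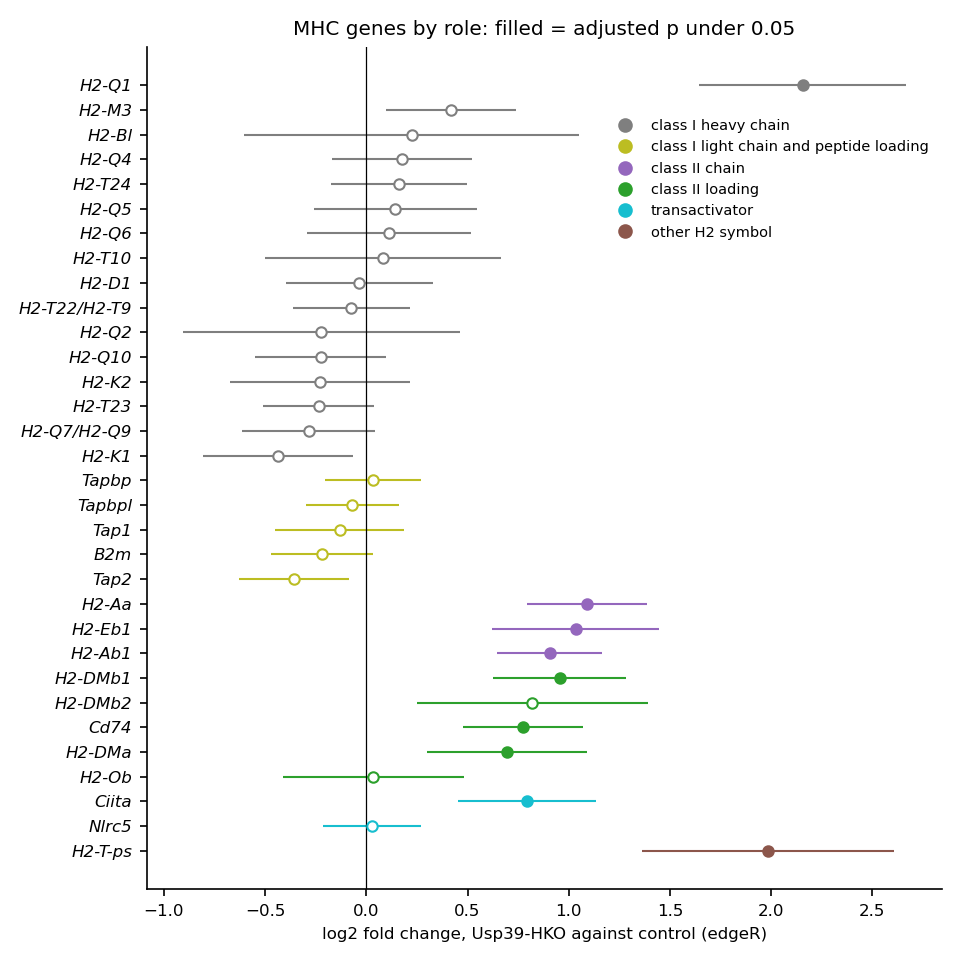
Log2 fold change of each tested MHC member in Usp39-HKO against control livers, grouped by role, with bars of 1.96 standard errors and filled points where the adjusted p was under 0.05. The 3 class II chains lie between 0.91 and 1.09, whereas the class I chains spread around 0 except H2-Q1 at 2.15.

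The 3 class II chains tested all rose, each by close to the same amount. H2-Aa codes for the alpha chain of the class II molecule of this strain. It was at 9.64, 14.8, 13.4 and 9.48 FPKM in controls A468, A472, A473 and A475, and at 26.4, 29.3, 27.2 and 36.4 in Usp39-HKO livers A469, A470, A471 and A474. Every Usp39-HKO liver exceeded every control, and the fitted difference was 2.13-fold (log2 fold change 1.09, SE 0.15, adjusted p = 0.00114). H2-Ab1, its beta chain partner, was at 14.7, 22.9, 15.4 and 16.6 FPKM in the same controls and at 34.9, 37.8, 39.3 and 41.8 in the same Usp39-HKO livers, a 1.87-fold difference (log2 fold change 0.91, SE 0.13, adjusted p = 0.00135). H2-Eb1, a beta chain of the second class II isotype, was at 14.9, 30.7, 16.7 and 14.5 in controls and 42.6, 43.5, 48.0 and 51.4 in Usp39-HKO, or 2.05-fold (log2 fold change 1.03, SE 0.21, adjusted p = 0.0061). Control A472 was the highest control for all 3 chains and still lay below the lowest Usp39-HKO liver. Without A472 the log2 fold change of H2-Eb1 was 1.36. All 3 chains were called in each of 17 alternative fits.

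The proportions among the class II chains overlapped between groups. H2-Aa amounted to 68.6 ± 12.8 per 100 H2-Ab1 in controls and 77.4 ± 7.33 in Usp39-HKO (FPKM, SD, n = 4 each). H2-Eb1 amounted to 108 ± 19.8 per 100 H2-Ab1 in controls and 121 ± 3.67 in Usp39-HKO. H2-Ea-ps, the inactive alpha chain gene that would partner H2-Eb1, had no count in any liver, which allows at most 0.288 to 0.349 (CPM, counts scaled by library size) depending on the library, from 3 counts and for counting error only. H2-Eb2 had 3 to 4 counts in the controls against 5 to 6 in Usp39-HKO and did not reach the filter on low levels. With no filter its log2 fold change was 0.40 (adjusted p = 0.670).

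Of the 5 genes tested that escort and load class II, 3 rose (Cd74, H2-DMb1 and H2-DMa). Cd74, the invariant chain on chromosome 18, was at 69.6, 110.9, 80.1 and 69.7 FPKM in controls A468, A472, A473 and A475 and at 163, 164, 151 and 189 in Usp39-HKO livers A469, A470, A471 and A474. The groups were apart, and the difference was 1.71-fold (log2 fold change 0.77, SE 0.15, adjusted p = 0.00493). Relative to the summed class II chains, Cd74 was lower in all Usp39-HKO livers, at 131.5 to 156 per 100 against 162 to 177 in controls. This ratio was singled out after its values were seen and is given with no test. H2-DMb1, the beta chain of the peptide exchange factor H2-DM, was at 2.85, 3.24, 4.09 and 3.48 FPKM in controls and 6.43, 6.94, 8.29 and 9.66 in Usp39-HKO (log2 fold change 0.95, SE 0.17, adjusted p = 0.00304). H2-DMa, its alpha chain, was at 1.93, 3.01, 1.62 and 1.84 FPKM in controls and 3.10, 3.84, 4.38 and 4.80 in Usp39-HKO. The lowest Usp39-HKO liver there was only just above control A472, and the call (log2 fold change 0.69, SE 0.20, adjusted p = 0.0292) was lost with adjusted p of 0.0737 to 0.0899 when A468, A473, A475, A471 or A474 was left out. The antisense neighbour Brd2 covers 10.4% of its exon length on the opposite strand, and reads of the pair cannot be separated without strand information.

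H2-DMb2, a second H2-DM beta chain gene, was at 0.623, 0.693, 0.666 and 0.385 FPKM in controls and at 0.884, 1.46, 1.20 and 1.39 in Usp39-HKO. Its groups did not overlap, yet the log2 fold change of 0.82 (SE 0.29) missed the threshold (adjusted p = 0.0636). It was called without Usp39-HKO A469 (adjusted p = 0.0428). H2-DMb1 and H2-DMb2 share part of their sequence, and 4.71% of the 150-base stretches of H2-DMb1 transcripts also occur in H2-DMb2. H2-Ob, a chain of the H2-DM inhibitor H2-O, was at 0.338 to 0.519 FPKM in the controls against 0.459 to 0.602 in Usp39-HKO, with a log2 fold change of 0.04 whose 95% interval ran from -0.41 to 0.48. Its partner H2-Oa had 0 to 7 counts in the controls against 1 to 11 in Usp39-HKO and did not reach the filter. In all, 8 of the 9 class II members tested had every Usp39-HKO liver above every control in FPKM, beside 23.9% of all genes tested.

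Ciita, the co-activator that switches on class II genes, was scarce and rose with them. Its FPKM were 0.388, 0.402, 0.427 and 0.524 in controls A468, A472, A473 and A475 and 0.777, 0.792, 0.978 and 1.03 in Usp39-HKO livers A469, A470, A471 and A474. The difference was 1.74-fold (log2 fold change 0.80, SE 0.17, adjusted p = 0.00854), and Ciita reached the filter in all 4 Usp39-HKO livers and in 1 control. With no filter it was also called (adjusted p = 0.0135), and A472, the control with the most class II RNA, had a Ciita level within the range of the other controls. Nlrc5, its counterpart for class I, was at 5.99 to 6.19 FPKM in controls and 6.18, 6.21, 8.35 and 8.48 in Usp39-HKO livers A470, A471, A469 and A474. The log2 fold change of Nlrc5 was 0.03 (SE 0.12, 95% interval -0.21 to 0.27, adjusted p = 0.904).

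The classical class I heavy chains were not called. H2-K1 was at 467, 607, 486 and 445.5 FPKM in controls A468, A472, A473 and A475 and at 555, 376, 437 and 361.5 in Usp39-HKO livers A469, A470, A471 and A474. Its groups overlapped, with a log2 fold change of -0.43 (SE 0.19, adjusted p = 0.122). Usp39-HKO A469 was the highest of its group, and without it H2-K1 passed the threshold at -0.60 (adjusted p = 0.0186). H2-D1 was at 313, 429, 326 and 300.4 FPKM in the same controls and at 494.5, 326, 393 and 345 in the same Usp39-HKO livers, with a log2 fold change of -0.03 (SE 0.19, 95% interval -0.40 to 0.33). The sign for H2-D1 turned with scaling, to 0.19 without TMM factors.

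The balance between these heavy chains was tighter than either level. H2-K1 stood at 149, 142, 149 and 148 per 100 H2-D1 in controls A468, A472, A473 and A475, and at 112, 115, 111 and 105 in Usp39-HKO livers A469, A470, A471 and A474. The groups were far apart relative to their spread, 147 ± 3.77 against 111 ± 4.42 (SD, n = 4 each), a log2 difference of -0.41 that stayed between -0.43 and -0.38 with any liver left out. A ratio within a liver does not depend on scaling between livers, and it shows unequal change, not which of the pair moved. It was singled out after its values were seen, so no test is given. No 150-base stretch of H2-K1 transcripts occurs in another gene, and 1.35% of those of H2-D1 occur in H2-Q1. As shares of the summed FPKM of class I heavy chains, H2-K1 went from 36.2% ± 0.745 to 30.7% ± 1.39 and H2-D1 from 24.6% ± 0.729 to 27.8% ± 1.43, with no overlap for either.

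Among the nonclassical heavy chains H2-Q1 stood out. This gene lies at chr17:35320405-35325099 on the plus strand. It was at 3.20, 4.87, 2.44 and 1.88 FPKM in controls A468, A472, A473 and A475 and at 11.7, 21.1, 15.0 and 17.6 in Usp39-HKO livers A469, A470, A471 and A474. Every Usp39-HKO liver was above every control, and the difference was 4.45-fold (log2 fold change 2.15, SE 0.26, adjusted p = 0.000671). It was called in all 17 alternative fits, with log2 fold changes of 1.97 to 2.47 when a liver was left out. The share of its 150-base stretches found in another gene was 2.69%, in H2-Q2 and H2-D1. H2-Q2 was at 1.06 to 3.10 FPKM in the controls against 1.27 to 2.52 in Usp39-HKO, with a log2 fold change of -0.22 (SE 0.35).

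The other nonclassical chains tested were not called. H2-Q10, a secreted class I molecule typical of hepatocytes, was at 282 to 398 FPKM in the controls against 273 to 361 in Usp39-HKO, with a log2 fold change of -0.22 (SE 0.17). H2-T23, the mouse Qa-1 molecule that is seen by NK cell receptors, was at 84.3 to 100.1 in the controls against 78.8 to 107.5 in Usp39-HKO, with -0.23 (SE 0.14). H2-M3, which presents formylated bacterial peptides, was at 3.11, 4.49, 3.89 and 4.41 FPKM in controls A468, A472, A473 and A475 and at 6.15, 6.07, 5.90 and 6.90 in Usp39-HKO. Its groups did not overlap, but its log2 fold change of 0.42 (SE 0.16) had an adjusted p of 0.0894, and it was called only by the fits without TMM factors or on log2 FPKM, at 0.55 to 0.65. H2-Q4, H2-Q5, H2-Q6 and H2-T24 had log2 fold changes between 0.11 and 0.18, and H2-T10, H2-T22/H2-T9, H2-K2 and H2-Q7/H2-Q9 between -0.28 and 0.08. Without Usp39-HKO A469, H2-Q7/H2-Q9 passed the threshold at -0.46 (adjusted p = 0.0236). Copies in this group are close to each other, and 22.3% of the 150-base stretches of H2-T22/H2-T9 and 20.9% of those of H2-T10 occur in another gene, so reads could be divided between them. H2-Bl reached the filter in exactly 4 livers and had a log2 fold change of 0.22 (SE 0.42). In FPKM, 2 of the 22 class I members tested were separated upwards, H2-Q1 and H2-M3, and none downwards, beside 23.9% and 4.81% of all genes tested.

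H2-T-ps, an unprocessed pseudogene of the H2-T region at chr17:36109234-36111658 on the minus strand, also rose. It was at 1.02, 1.14, 0.873 and 0.900 FPKM in controls A468, A472, A473 and A475 and at 2.89, 7.26, 4.22 and 4.05 in Usp39-HKO livers A469, A470, A471 and A474. Usp39-HKO A470 was the highest for both H2-T-ps and H2-Q1, and A469 the lowest for both. The log2 fold change was 1.98 (SE 0.32, adjusted p = 0.00209). H2-Ke6, an enzyme gene that keeps an H2- symbol only from its position, had 0 to 2 counts for each liver and lies within another annotated gene over 86.4% of its exon length.

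The light chain and the peptide loading genes of class I overlapped between groups. B2m was at 1242, 1125, 1163 and 957.5 FPKM in controls A468, A472, A473 and A475 and at 1161, 1098, 1147 and 1127 in Usp39-HKO livers A469, A470, A471 and A474. Its log2 fold change was -0.22 (SE 0.13, 95% interval -0.47 to 0.03, adjusted p = 0.253). Tap2, a subunit of the peptide transporter, was at 4.44 to 6.22 FPKM in the controls against 4.46 to 5.16 in Usp39-HKO, with -0.36 (SE 0.14, adjusted p = 0.0864). Tap1, the other subunit, had -0.13 (SE 0.16), Tapbp 0.03 (SE 0.12) and Tapbpl -0.07 (SE 0.12). None of these 5 genes was called by edgeR, DESeq2, limma-voom or limma on log2(FPKM + 1), and 1 (Tap2) had an unadjusted p under 0.05. The signs of B2m, Tap1 and Tapbpl turned without TMM factors. Tapbp shares 24.9% and Tap2 18.5% of exon length with genes on the opposite strand.

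The classes were then compared within each liver. Class I heavy chains summed to 1292, 1683, 1307 and 1258 FPKM in controls A468, A472, A473 and A475 and to 1726, 1274, 1381 and 1222 in Usp39-HKO livers A469, A470, A471 and A474. The groups overlapped fully, and 1 liver in each, A472 and A469, stood above the rest. Class II chains summed to 39.4, 68.5, 45.5 and 40.6 FPKM in controls and 104, 111, 115 and 129.8 in Usp39-HKO, with no overlap. For every 100 FPKM of class I heavy chains there were thus 3.05, 4.07, 3.48 and 3.23 FPKM of class II chains in controls and 6.03, 8.69, 8.30 and 10.6 in Usp39-HKO. The group means were 3.46 ± 0.446 and 8.41 ± 1.89 (SD, n = 4 each), 2.43 times apart, with a log2 difference of 1.26. Restricting the sums to H2-Aa, H2-Ab1 and H2-Eb1 against H2-K1 and H2-D1 gave 1.32, CPM gave 1.28, and leaving out a liver gave 1.14 to 1.41. Against B2m, class II chains amounted to 4.35 ± 1.24 per 100 in controls and 10.1 ± 1.05 in Usp39-HKO. These ratios describe the livers and carry no test, because the members were chosen with results known.

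**Figure D3:**
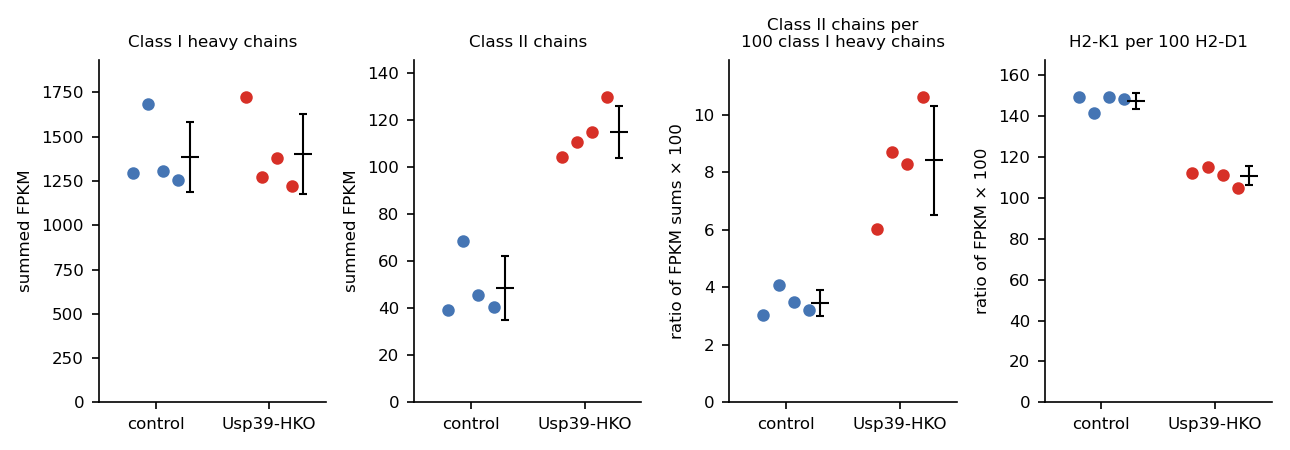
Summed FPKM of class I heavy chains and of class II chains, their ratio, and the ratio of H2-K1 to H2-D1, with 1 point for each liver and the mean and SD of 4 livers at its right. Class I sums overlap, class II sums do not, and H2-K1 per 100 H2-D1 lies between 142 and 149 in controls and between 105 and 115 in Usp39-HKO.

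The wider pathway was followed in 7 lists fixed for this comparison, and together with 10 cell type lists they held 105 genes tested, of which 42 were called, beside 22.5% of all genes tested. The counts of each list stand beside 10.9% of all genes tested called higher and 11.6% called lower. The total over the lists was 22 without control A473, 24 without control A475 and 27 without Usp39-HKO A474. Of the 5 endosomal enzymes that prepare antigen for class II, 4 rose and none fell. Ctss, the cathepsin S that trims Cd74, was at 49.2 ± 4.17 FPKM in controls and 105 ± 25.1 in Usp39-HKO (log2 fold change 0.84, adjusted p = 0.00137). Lgmn, an asparagine-directed protease, went from 55.8 ± 3.43 to 109 ± 20.2 (0.73, adjusted p = 0.00166). Ifi30, a thiol reductase for antigens, and Ctsb rose as well, with 0.69 and 0.34. With a liver left out, 3 or 4 of the 5 were called.

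Genes of the immunoproteasome (Psmb8, Psmb9 and Psmb10) and of the proteasome activator (Psme1 and Psme2) were not called by edgeR in any of 5 cases. Their log2 fold changes ran from -0.27 for Psmb9 to 0.19 for Psmb8. None had an unadjusted p under 0.05 and none was called by DESeq2 or limma-voom, while 1 (Psme1) was called without TMM factors. Their summed FPKM, which carries no TMM scaling, did not overlap, at 61.7 to 73.7 in controls against 79.3 to 89.5 in Usp39-HKO. The activator gene Psme1 was the largest part of that sum, with means of 36.0 FPKM in controls and 46.1 in Usp39-HKO. Of 5 chaperones and trimming enzymes of the endoplasmic reticulum, 3 fell and none rose. Calr, a chaperone of the class I loading complex, went from 184.5 ± 8.42 to 120 ± 6.95 FPKM (log2 fold change -0.86, adjusted p = 0.000758). Hspa5 and Pdia3 fell with -0.55 (adjusted p = 0.00666) and -0.42 (adjusted p = 0.0278), and both overlapped between groups in FPKM. Hspa5 was called in 14 of 17 alternative fits and Pdia3 in 7 of 17. With a liver left out, 2 to 4 of the 5 were called lower. Without TMM factors Calr alone was called lower in this list. Calr, Hspa5 and Pdia3 also serve the folding of other secreted proteins.

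Of 15 genes that control class II, 3 were called higher and 2 lower, beside 10.9% and 11.6% of all genes tested, and nothing is read from the list as a whole. Ifngr1, a chain of the interferon gamma receptor, rose with 0.63 (adjusted p = 0.00357), and Irf8, a factor of macrophages and dendritic cells, rose with 0.62 (adjusted p = 0.019), as did Ifngr2 with 0.37. Rfxank, a subunit of the RFX complex that binds class II promoters, fell with -0.59 (adjusted p = 0.0354) and Irf2 with -0.42. Neither fall was called without TMM factors. Without A473, A475 or A474, the list held 1 call higher and none lower, and without A471 it held 1 higher. Rfx5, Rfxap and the NF-Y subunits Nfya, Nfyb and Nfyc lay between -0.15 and 0.04. None of the 8 genes induced by interferon gamma that were tested was called by edgeR on all 8 livers. At an unadjusted p under 0.05 there were 2, both lower (Irgm1 with -0.35 and Iigp1 with -0.42). Irgm1 was called lower without control A472 (adjusted p = 0.0448), and both were without Usp39-HKO A470 (adjusted p = 0.0341 for Irgm1 and 0.0418 for Iigp1). One gene, Gbp2, was called higher by edgeR with no TMM factor and by limma on log2(FPKM + 1). The largest difference upwards in that list was Gbp2 with 0.32 (adjusted p = 0.160), and Ifng itself was below the filter.

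Relatives of class I differed in direction, while the 4 co-stimulatory genes tested all had positive log2 fold changes. Cd1d1, which presents lipids to NKT cells, fell from 148 ± 15.5 to 79.8 ± 17.3 FPKM (log2 fold change -1.12, adjusted p = 0.00146). Mr1, which presents vitamin metabolites to MAIT cells, rose from 0.739 ± 0.0403 to 1.54 ± 0.601 (0.80, adjusted p = 0.0323), a call that was lost with A468, A472, A473, A475, A470 or A474 left out. The other 4 of these 6 genes (Fcgrt, Hfe, Azgp1 and Procr) were not called. Azgp1 (-0.50, adjusted p = 0.0562) and Fcgrt (-0.31, adjusted p = 0.129) were lower at an unadjusted p under 0.05. Azgp1 was called in 6 of 17 alternative fits. Of 4 co-stimulatory genes tested, Icosl rose with 1.39 (adjusted p = 0.00263) and Cd86 with 0.66 (adjusted p = 0.0261). Icosl was at 0.236 to 0.457 FPKM in controls and 0.913 to 1.26 in Usp39-HKO, so it reached the filter only through the Usp39-HKO livers. With no filter Icosl was also called by edgeR (1.36, adjusted p = 0.000923). Cd80 and Cd274 had 0.33 and 0.34 and did not pass, and 1 of the 4 was called without A472, A473, A475, A470 or A474.

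**Figure D4:**
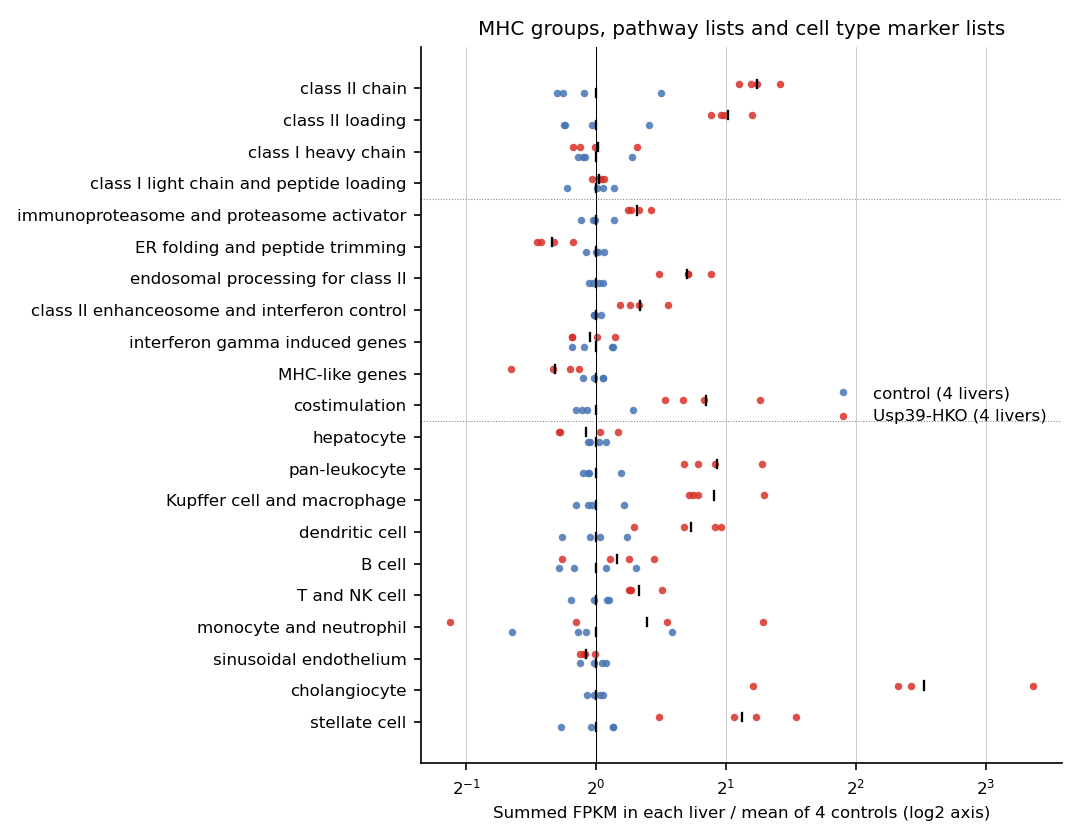
Summed FPKM of MHC groups, pathway lists and cell type marker lists in each liver, relative to the mean of the 4 controls on a log2 axis, with a black bar at each group mean. Class II chains and loading genes have all 4 Usp39-HKO livers to the right of controls. So do the endosomal, pan-leukocyte, Kupffer cell, cholangiocyte and stellate cell lists. The immunoproteasome, class II control, costimulation, dendritic cell, and T and NK cell lists are also to the right. The endoplasmic reticulum and MHC-like lists have all 4 to the left. Class I groups and the interferon gamma induced, hepatocyte, B cell, monocyte and neutrophil, and sinusoidal lists overlap.

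Markers of leukocytes and of Kupffer cells also rose. All 6 pan-leukocyte markers rose, with log2 fold changes of 0.52 to 0.77. The smallest p were those of Laptm5 (0.75, adjusted p = 0.00182) and Rac2 (0.52, adjusted p = 0.0108). Their summed level over all 6 was 38.1 to 46.6 FPKM in the controls against 65.1 to 98.7 in Usp39-HKO. Of the 6 markers, 3 were called without A473 or without A475. Of 8 Kupffer cell and macrophage markers 6 rose, among them Cd5l with 0.75 (adjusted p = 0.00355) and Vsig4 with 0.73 (adjusted p = 0.00949), and the sum went from 301 to 389 FPKM in controls up to 549 to 822 in Usp39-HKO. Without A473, 3 of the 8 were called. In the dendritic cell list 1 of 5 tested rose (Itgax with 1.30, adjusted p = 0.0135), Clec9a had 0.30 (adjusted p = 0.325), and sums were 4.00 to 5.66 and 5.87 to 9.36. With no filter 3 of the 8 listed were called, since Flt3 (1.18, adjusted p = 0.0328) and Siglech (1.61, adjusted p = 0.00394) were then tested too. None of 4 B cell markers tested was called, and their sums overlapped at 4.07 to 6.11 and 4.13 to 6.76. At an unadjusted p under 0.05 there was 1 (Cd22, log2 fold change 0.54), which was called without TMM factors and without A469, and none by DESeq2 or limma-voom. Cd79a had -0.48 (adjusted p = 0.335). Cd209a was the one marker of the class II bearing types with no count in some liver.

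Class II RNA was also set against these markers liver by liver. The summed class II chains amounted to 1.04, 1.47, 1.16 and 1.04 times the pan-leukocyte sum in controls A468, A472, A473 and A475, and to 1.60, 1.44, 1.63 and 1.31 times in Usp39-HKO livers A469, A470, A471 and A474. The groups overlapped through A472. Against the Kupffer cell and macrophage sum the ratios were 0.122 to 0.176 in the controls against 0.158 to 0.199 in Usp39-HKO, which also overlapped. Against the dendritic cell sum they overlapped at 8.04 to 17.1 and 12.2 to 17.7, and against the B cell sum they did not, at 6.45 to 16.8 and 18.7 to 27.8. The part of these markers in the class II result was not tested. Markers of other cells moved too, with 4 of 4 cholangiocyte genes and 4 of 6 stellate cell genes tested higher (sums of 26.4 to 28.7 against 64.1 to 285 FPKM, and 15.7 to 20.8 against 26.4 to 54.9). The smallest p among them were those of Spp1 (2.33, adjusted p = 0.000924) and Epcam (2.11, adjusted p = 0.00582) for cholangiocytes and of Col1a1 (1.70, adjusted p = 0.00333) and Pdgfrb (0.86, adjusted p = 0.00394) for stellate cells. Spp1 made up most of the cholangiocyte sum, with means of 24.2 FPKM in controls and 147 in Usp39-HKO. Sox9 overlapped between groups and was called in 6 of the 16 alternative fits that held it. With a liver left out, 3 to 4 cholangiocyte and 3 to 5 stellate cell genes were called higher. Of 6 T and NK cell markers tested, none was called by edgeR or had an unadjusted p under 0.05, and 1 (Nkg7) was called by limma on log2(FPKM + 1). The FPKM sums of that list did not overlap, at 6.59 to 8.05 in controls against 8.98 to 10.7 in Usp39-HKO. Cd3d and Cd3g had 0.70 (adjusted p = 0.183) and 0.67 (adjusted p = 0.234). Of 5 monocyte and neutrophil markers 1 was higher (Ccr2 with 0.98, adjusted p = 0.00674), while Csf3r had 0.59 (adjusted p = 0.0644) and was called by DESeq2. Ccr2 was at 0.3545 to 0.582 FPKM in controls and 0.898 to 1.36 in Usp39-HKO, so it reached the filter through the Usp39-HKO livers. With no filter Ccr2 was also called by edgeR (0.95, adjusted p = 0.00596). Of 7 sinusoidal endothelium markers 2 (Lyve1 and Stab2) were lower. The hepatocyte list had 2 of 6 lower, Cyp2e1 and Serpina1b, with sums that overlapped. Neither was called without A468, A473, A475, A470 or A471, and no endothelial marker was called without A473.

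Of the 48 members, 16 did not reach the filter. For 10 of them no liver had a count, namely H2-M1, H2-M9, H2-M10.1, H2-M10.3, H2-M10.4, H2-M10.5, H2-M10.6, H2-M11, H2-T18/H2-T3 and H2-Ea-ps. The other 6 (H2-M2, H2-M5, H2-M10.2, H2-Eb2, H2-Oa and H2-Ke6) had at most 11 counts in a liver. With no filter none of these 6 was called, with adjusted p of 0.519 to 0.744, and a difference in them was not detectable at this depth. The members lie mostly together, with 43 of 48 on chromosome 17.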

How the data were processed

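RNA-seq was performed on 8 mouse livers, 4 control and 4 Usp39-HKO, 1 library per mouse. The authors trimmed reads with Trim Galore 0.6.1, checked them with FastQC 0.11.9 (per the submitters' processing notes), aligned them to mm10 with HISAT2 and deposited raw counts per gene from featureCounts. They also deposited FPKM values, which were recomputed from the counts and the deposited exon length (unit: bases) and differed by less than rounding. The annotation release, strand setting and treatment of multi-mapped reads are not given in the sources used here. The deposited table further holds the DESeq2 comparison of the authors (mean normalized signal, log2 fold change, Wald score and p-value), which was not used. Gene coordinates came from GENCODE and promoters from RefSeq.

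Rows were read once per Ensembl identifier. Genes with FPKM of at least 0.5 in at least 4 livers were tested on the counts with edgeR 4.0.16 (TMM factors, quasi-likelihood, R 4.3.3), with Benjamini-Hochberg adjustment over all 14340 genes. TMM factors were 0.912 to 0.940 for controls against 1.01 to 1.19 for Usp39-HKO. The fit was tested on simulated data. Alternatives were DESeq2 1.42.0, limma 3.58.1 on voom weights or on log2 FPKM with a pseudocount of 1 or 0.1, other scalings and filters, and each liver left out. P-values weigh the difference between groups against the spread between these livers, with variance estimates moderated across genes. Intervals are 1.96 standard errors for the stated 95%. Members and lists were chosen with earlier results of these data known. Every member that passed the filter was named, and for each list the 2 genes with the smallest p and any that a sentence turns on.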

Additional observations from a re-analysis of the deposited data

Results flagged for a closer look

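In each group of 4 livers, the FPKM of each of the 32 tested members was examined for a single liver far from the others, by the ratio of its gap to the whole range, against Dixon's critical value at 95%. Of 64 groups 3 were marked, and chance alone marks about 1 group in 20. H2-K2 was at 3.89 FPKM in control A472 and at 2.48 to 2.69 in the other controls. H2-Eb1 was at 30.7 FPKM in control A472 and at 14.5 to 16.7 in the other controls. H2-Q7/H2-Q9 was at 25.6 FPKM in Usp39-HKO A469 and at 17.6 to 18.2 in the other Usp39-HKO livers. Control A472 also had the largest class I and class II sums of its group, and Usp39-HKO A469 the largest class I sum.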

How the results depend on the processing

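Class II calls stayed between 5 and 8, and the difference of class II against class I kept its direction, in every alternative run. Class I calls were 2 without TMM factors, 2 by limma on log2(FPKM + 1) and 1 to 3 with a liver left out. Whole-table calls fell to 1595 with a mean FPKM of at least 5, where 6672 genes were tested, and were 1931 to 3510 with a liver left out. List calls were 22 to 47 with a liver left out. The signs that turned all belong to members with no call. Without TMM factors the log2 fold changes were 0.19 for H2-D1, 0.00024 for H2-Q10, 0.015 for H2-Q2, 0.15 for H2-T22/H2-T9, 0.015 for B2m, 0.094 for Tap1 and 0.16 for Tapbpl. By limma on log2(FPKM + 1) they were 0.18 for H2-D1, 0.0066 for H2-K2, 0.0063 for H2-Q10, 0.046 for H2-Q2, 0.13 for H2-T22/H2-T9, 0.021 for B2m, 0.077 for Tap1 and 0.16 for Tapbpl. With a pseudocount of 0.1 they were 0.18 for H2-D1, 0.0105 for H2-K2, 0.0063 for H2-Q10, 0.093 for H2-Q2, 0.13 for H2-T22/H2-T9, 0.021 for B2m, 0.083 for Tap1 and 0.17 for Tapbpl. With the mean FPKM filter they were 0.041 for H2-D1, 0.00097 for H2-T22/H2-T9 and 0.00995 for Tapbpl, and with no filter Nlrc5 was at -0.00011. With a liver left out the values ran from -0.16 to 0.45 for H2-Bl, -0.19 to 0.094 for H2-D1, -0.45 to 0.22 for H2-Q2, -0.021 to 0.28 for H2-Q4, -0.073 to 0.25 for H2-Q5, -0.15 to 0.24 for H2-Q6, -0.15 to 0.28 for H2-T10, -0.23 to 0.034 for H2-T22/H2-T9, -0.036 to 0.11 for Tapbp, -0.12 to 0.025 for Tapbpl, -0.063 to 0.0997 for Nlrc5 and -0.080 to 0.12 for H2-Ob. The cause was not tested. The ratio of H2-K1 to H2-D1 and its alternatives were added after the data were seen. No paired analysis was possible because each mouse number occurs once and the groups share none. The 16 members that did not reach the filter had at most 11 counts in any liver, and at this depth differences in them could not be resolved.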
